A study of Mus musculus with 6 samples.

Results

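The genes described here are the ATP-binding cassette (ABC) transporters of subfamilies A to G, followed in As4.1 cells, a mouse renal tumour line that makes renin. They were taken by symbol, as every probe set annotated on the array to a single gene named Abca, Abcb, Abcc, Abcd, Abce, Abcf or Abcg with a number, and the paralogs whose number is followed by a letter (Abca8a, Abca8b, Abcb1a and Abcb1b) were kept. Abcc8 and Abcc9, the sulfonylurea receptor subunits of potassium channels, were left out. The rule found 43 of the 18193 genes named on the Affymetrix Mouse Genome 430 2.0 array, with 87 of its 45101 probe sets. Of these, 49 probe sets of 26 genes passed the filter on signal and were tested, and 38 probe sets were too dim. Cells had received vehicle, hydrogen peroxide or an interleukin. Each of these 3 groups had 2 arrays, numbered as replicates and taken here as separate cultures with 1 array each. The labels do not say which interleukin was used, nor any dose, time or vehicle. Apart from the agent nothing in the labels sets the groups apart, all cultures belong to the same tumour line, and p-values measure the spread between cultures of that line.

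ABC transporters are membrane proteins that use ATP to move lipids, drugs, conjugates, peptides or metals across a membrane. Subfamily A members mostly move lipids, and ABCA1 loads cholesterol and phospholipid onto apolipoprotein A-I at the cell surface. Subfamilies B, C and G hold the drug and conjugate exporters, among them P-glycoprotein and the multidrug resistance proteins, which pump out glutathione, glucuronide and sulfate conjugates. Subfamily D works in peroxisomes and lysosomes, whereas ABCE1 and the F subfamily have no membrane domains and act on ribosomes.

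Values are MAS5 signals, a linear brightness per probe set, deposited by the authors with the same trimmed mean on every array. Changes are differences of mean log2 signal between groups with the standard error (SE) of limma, and a probe set is said to have risen or fallen only where its limma p-value, adjusted over all 22519 tested probe sets by Benjamini-Hochberg, was under 0.05. Array medians were 192.2 to 232.3. Of 5 renin cell markers 3 were matched to a probe set annotated to a single gene, and only Kcnj8 was above the filter. Kcnj8 read 2405.1 and 2326.6 with vehicle, 849.6 and 671.8 with hydrogen peroxide, and 1594.8 and 2521.9 with interleukin. Gja5 (5.2 to 9.1) and Rgs5 (55.7 to 201.6) were below the filter, and Ren1 and Akr1b7 were not analysed here. Of 5 mural cell markers 4 were above the filter, with Pdgfrb at 7955.5 to 15398.5 and Myh11 at 7.6 to 136.1. The defining leukocyte marker Ptprc stayed at 21.3 to 125.7 and the endothelial Pecam1 at 12.0 to 48.7, so both were dim on every array. Summed signals moved with the groups for some lists. The 3 matched renin cell markers summed to 2423.6 to 2558.9 with vehicle, 865.2 to 999.8 with hydrogen peroxide and 1658.1 to 2731.1 with interleukin. The 6 leukocyte and macrophage markers, of which Cd68, Csf1r and Cd14 were above the filter, summed to 3633.8 to 3724 with vehicle, 4321.5 to 4539.5 with hydrogen peroxide and 6342.3 to 7095.4 with interleukin, and the mural markers to 16436 to 16802, 18260 to 18761 and 24473 to 32003. The 5 endothelial markers, with only Kdr above the filter, summed to 13485 to 15951, 10829 to 11674 and 8470.6 to 11900, and the 6 epithelial markers, with Epcam and Aqp2 above it, to 1012.1 to 1175.9, 873.2 to 911.3 and 788.8 to 1136.8. Their part in the results on ABC transporters was not tested, and in RNA from whole cultures fewer cells of a type and less RNA per cell cannot be told apart.

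Promoters are shown for Abca1, Abca9 and Abcb1b, the member genes in the RefSeq promoter table used (GRCm38.p6) with a change against vehicle that passed and was over 2-fold, since they show the letters in front of genes that moved in opposite directions. Each run gives the 250 bases before the start site, 5′ to 3′ on the gene's own strand, with matches to the searched motifs in capitals. Abca1 lies at chr4:53159896-53160145 (minus strand), Abca9 at chr11:110168154-110168403 (minus strand) and Abcb1b at chr5:8797897-8798146 (plus strand). The promoters of Abcg8 and Abca7 are in the table and not shown, and Abcc3 and Abcc1 are named only.
Abca1: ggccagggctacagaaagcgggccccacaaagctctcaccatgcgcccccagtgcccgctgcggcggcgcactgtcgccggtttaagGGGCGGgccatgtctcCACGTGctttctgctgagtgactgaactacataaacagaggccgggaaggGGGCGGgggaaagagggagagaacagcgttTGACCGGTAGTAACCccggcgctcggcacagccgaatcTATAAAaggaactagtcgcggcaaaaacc
Abca9: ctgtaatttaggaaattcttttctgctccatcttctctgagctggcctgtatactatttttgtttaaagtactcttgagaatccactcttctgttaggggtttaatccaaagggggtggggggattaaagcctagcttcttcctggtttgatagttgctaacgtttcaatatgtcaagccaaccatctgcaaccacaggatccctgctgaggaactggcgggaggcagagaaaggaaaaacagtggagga
Abcb1b: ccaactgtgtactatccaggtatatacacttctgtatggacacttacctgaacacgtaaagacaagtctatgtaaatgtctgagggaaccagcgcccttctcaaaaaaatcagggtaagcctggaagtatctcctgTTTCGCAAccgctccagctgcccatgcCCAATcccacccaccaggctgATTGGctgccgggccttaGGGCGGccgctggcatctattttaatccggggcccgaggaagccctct
In Abca1 the capitals mark, in order, a GC box (GGGCGG), an E-box (CACGTG), a second GC box, a direct repeat of the liver X receptor type (TGACC and TAACC with 5 bases between) and a TATA box (TATAAA). In Abcb1b they mark a C/EBP-type motif (TTNNGCAA), a CCAAT box, a CCAAT box read on the other strand (ATTGG) and a GC box. No searched motif was found in the Abca9 run.

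Motifs were searched on both strands in the same 250 bases of all 32851 promoters of the table, of which 41 belonged to 34 of the 43 member genes. The GC box was in 19 of the 41 member promoters (46.3%) and in 32.7% of all promoters. CCAAT was in 12 (29.3%, against 33.8%), TATAAA in 5 (12.2%, against 12.4%) and CACGTG in 4 (9.76%, against 6.02%). The antioxidant response type (TGACNNNGC) was in 4 (9.76%, against 10.2%) and the C/EBP type in 3 (7.32%, against 9.56%). No member promoter held the AP-1 type (TGANTCA, 6.75% of all) or the NF-kappaB type (GGGA and TTTCC with 1 base between, 0.356% of all). The direct repeat was chosen after the Abca1 sequence had been read, and it was in 15 of all promoters (0.0457%), 1 of them a member's. A TGACNNNGC match can share letters with an AP-1 match, and a motif match is a description of letters, not of binding.

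Against vehicle, interleukin was accompanied by a rise of Abcc3, Abcc1 and Abcg8 and a fall of Abca9 and of 2 of the 3 tested Abca1 probe sets. Hydrogen peroxide was accompanied by a rise of Abcb1b and a fall of Abca9. Between the treatments Abcc3 and Abca7 were higher with interleukin. In counts of probe sets, 6 of 49 passed for interleukin against vehicle, 3 higher and 3 lower, which is 12.2% of the tested members, against 16.1% of all tested probe sets (7.58% higher, 8.52% lower). For hydrogen peroxide 2 of 49 passed, 1 in each direction, 4.08% against a background of 5.69% (3.05% higher, 2.65% lower). For interleukin against hydrogen peroxide 2 of 49 passed, both higher, 4.08% against 8.82% (4.95% higher, 3.87% lower). By probe set the ABC shares were below those of all tested probe sets, but they rest on few probe sets. The median SE was 0.21 for the tested members and 0.17 for all tested probe sets. Median geometric mean signals were 966.9 and 1514, and the part of brightness and spread in these shares was not tested. Both comparisons with vehicle share the same vehicle arrays, and probe sets of a gene read the same transcript and are not replicates. Counted by gene, with the probe set of highest mean log2 signal standing for each, 4 of 26 genes passed for interleukin (15.4%, background 16.4%), 2 for hydrogen peroxide (7.69%, background 6.99%) and 2 between the treatments (7.69%, background 10.4%).

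With 75th percentile centring or quantile normalization the interleukin split was 2 higher and 4 lower. Without vehicle replicate 2 the interleukin count was 3, and without vehicle replicate 1, vehicle replicate 2 or hydrogen peroxide replicate 2 the count between the treatments was 1, which was Abcc3. The hydrogen peroxide count was 0 without vehicle replicate 1, vehicle replicate 2 or hydrogen peroxide replicate 1, and 0 with a variance model without trend, while 9 higher and 4 lower members had an unadjusted limma p under 0.05 with all 6 arrays (18.4% and 8.16%, background 12.1% and 10.3%). The same counts were 6 higher and 6 lower for interleukin (12.2% each, background 13.8% and 16.3%), and 3 higher and 7 lower between the treatments (6.12% and 14.3%, background 10.2% and 13.6%).

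The median log2 change over the 49 tested member probe sets was 0.04 for interleukin, 0.05 for hydrogen peroxide and -0.11 between the treatments, beside -0.02, 0.02 and -0.05 over all tested probe sets. The median absolute change was 0.19, 0.18 and 0.20, beside 0.25, 0.20 and 0.21. Among all 87 member probe sets, dim ones included, both interleukin arrays lay above both vehicle arrays in 26 (29.9%, background 25.1%) and below them in 14 (16.1%, background 22.4%). The same counts for hydrogen peroxide were 22 (25.3%, background 23.2%) and 17 (19.5%, background 22.2%), and between the treatments 18 (20.7%, background 22.4%) and 23 (26.4%, background 20.7%). The 95% interval of the change stayed under 2-fold in both directions for 33 of the 49 tested members with interleukin (67.3%, background 74.1%), 35 with hydrogen peroxide (71.4%, background 79.6%) and 37 between the treatments (75.5%, background 78.4%). Of the 43 that did not pass for interleukin, 32 had such an interval, as did 35 of 47 for hydrogen peroxide and 36 of 47 between the treatments, and for the remainder a change of 2-fold or more lay within the interval.

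**Figure D1:**
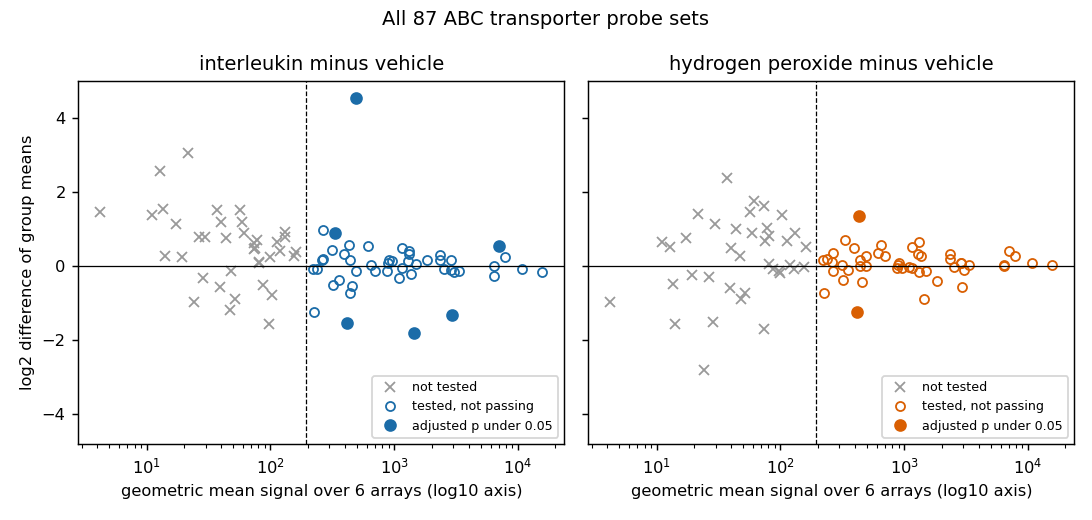
Log2 difference from vehicle (vertical axis) against the geometric mean signal over 6 arrays (horizontal log axis) for the 87 ABC probe sets, with crosses for those under the filter (dashed line) open circles for those tested and filled circles for those with adjusted p under 0.05. Abcc3 stands at 4.54 in the interleukin comparison, and the dim probe sets left of the line scatter widely.

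Subfamily A, the lipid transporters, had 21 probe sets of 14 genes, of which 9 probe sets of 6 genes were tested. For interleukin 3 of the 9 fell and 0 rose by limma (background 8.52% lower, 7.58% higher), and 2 of the 3 read Abca1. For hydrogen peroxide 1 fell and 0 rose (background 2.65% lower, 3.05% higher). At an unadjusted limma p under 0.05, 2 were higher and 3 lower with interleukin (background 13.8% and 16.3%). With hydrogen peroxide 1 was higher and 4 were lower (background 12.1% and 10.3%). Abca9, a subfamily A member whose substrate is not well established, had signals of 720.8 and 862.4 with vehicle, 378.5 and 300.5 with hydrogen peroxide, and 354.4 and 211.2 with interleukin (1440879_at). All 4 treated arrays lay below both vehicle arrays, and the arrays of the 2 treatments overlapped. The means were 791.6 ± 100 (SD, n = 2) with vehicle, 339.5 ± 55.2 with hydrogen peroxide and 282.8 ± 101 with interleukin. The log2 change was -1.53 ± 0.30 (SE, limma, adjusted p = 0.00679) with interleukin and -1.23 ± 0.30 (adjusted p = 0.0417) with hydrogen peroxide, and between the treatments it was -0.30 (adjusted p = 0.596). The interleukin call was lost without vehicle replicate 2 (-1.40, adjusted p = 0.0787), over alternatives that gave adjusted p from 0.00428 to 0.0787. The hydrogen peroxide call held in 5 of 13 alternatives, whose adjusted p ran from 0.0173 to 0.278. It was lost without vehicle replicate 1 (0.152), without vehicle replicate 2 (0.278), and without hydrogen peroxide replicate 1 (0.0931) or 2 (0.141). The other Abca9 probe set was too dim to test, at 63.3 to 179.0.

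**Figure D2:**
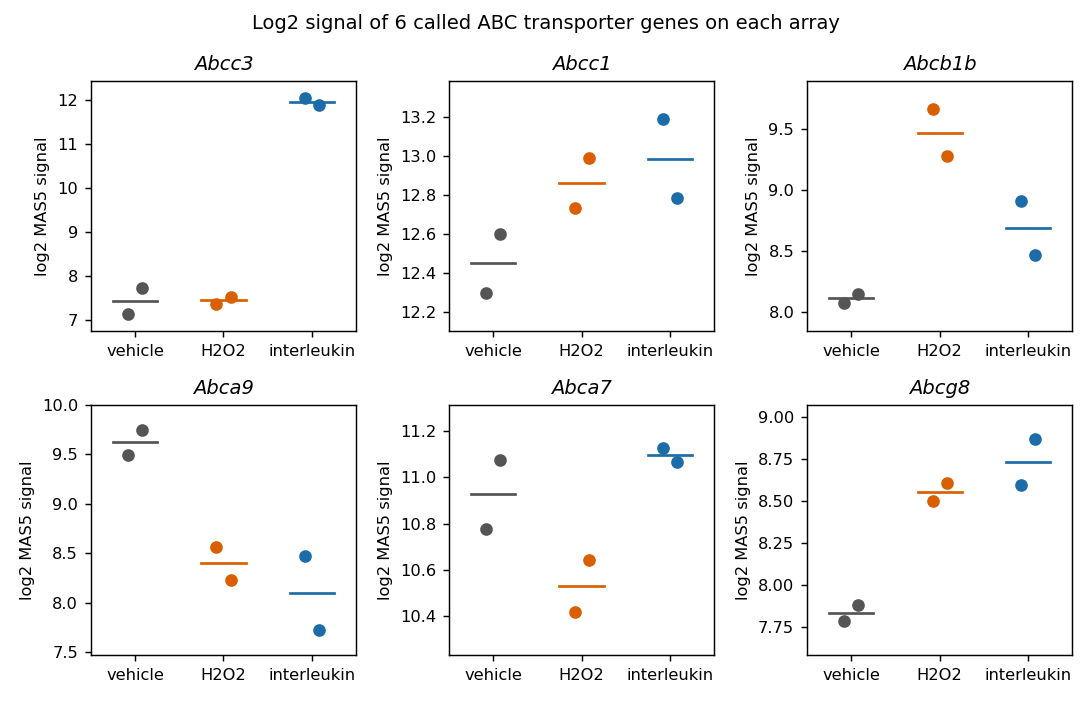
Log2 MAS5 signal per array in the 3 groups for the Abcc3, Abcc1, Abcb1b, Abca9, Abca7 and Abcg8 probe sets that passed in a comparison, where points are arrays and bars are the means of log2 signal (2 arrays per group). Both interleukin arrays stand far above the other 4 for Abcc3, while for Abca9 all 4 treated arrays lie below both vehicle arrays.

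Abca1, the cholesterol and phospholipid exporter, was read by 3 tested probe sets, which differed from each other. On 1421839_at the signals were 4337.0 and 4815.7 with vehicle, 2427.4 and 3907.6 with hydrogen peroxide, and 2084.5 and 1595.5 with interleukin. On 1450392_at they were 2740.2 and 2649.1, 1044.0 and 2010.9, and 990.6 and 607.5. In both, all 3 groups were apart, with vehicle highest and interleukin lowest. These 2 probe sets fell with interleukin, with log2 changes of -1.33 and -1.80 (SE 0.21 and 0.29, limma adjusted p = 0.00205 and 0.00248). Both calls held in 14 of 14 alternatives, with adjusted p from 0.000344 to 0.0419 and from 0.000394 to 0.0456. The brightest Abca1 probe set, 1421840_at, which stands for the gene by the rule of highest signal, read 15639 and 16558 with vehicle, 15308 and 18025 with hydrogen peroxide, and 14556 and 14464 with interleukin. The interleukin arrays were again the lowest, but the log2 change was -0.15 ± 0.10 with a 95% interval of -0.36 to 0.06 (limma, adjusted p = 0.33). That interval does not reach the change seen on the other probe sets, so a count by gene leaves Abca1 out and a count by probe set takes it in.

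With hydrogen peroxide the log2 changes of these Abca1 probe sets were -0.57 (95% interval -1.03 to -0.11, limma adjusted p = 0.14), -0.89 (-1.54 to -0.25, adjusted p = 0.103) and 0.05 (-0.17 to 0.26, adjusted p = 0.824), none of which passed. The hydrogen peroxide cultures were unlike each other, and without hydrogen peroxide replicate 2 the first pair passed (-0.91 with adjusted p = 0.0367, and -1.37 with adjusted p = 0.0292). Between the treatments 1421839_at differed by -0.76 (adjusted p = 0.05001), which lies just above the threshold and passed with quantile normalization (0.0462), 75th percentile centring (0.0392), 32 added to each signal (0.0490) and the stricter filter (0.0454). It also passed without hydrogen peroxide replicate 1 (0.00753) and without interleukin replicate 1 (0.0486), while the highest value over alternatives was 0.324. For 1450392_at the difference was -0.90 (adjusted p = 0.0869), and it passed without hydrogen peroxide replicate 1 (0.0126) or interleukin replicate 1 (0.0479).

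A measure of RNA integrity moved in part with the Abca1 values. The 3' to 5' signal ratio of the control transcript Tfrc was 1.85 and 2.14 with vehicle, 3.54 and 2.30 with hydrogen peroxide, and 3.05 and 3.95 with interleukin. The ratio of Pcx was 1.66 and 1.59, 2.89 and 2.03, and 2.30 and 2.46, so both ratios were lowest on the vehicle arrays. That of beta-actin ran from 1.22 to 1.55, lowest with vehicle and highest with interleukin, and that of Gapdh from 0.825 to 0.873. Within the hydrogen peroxide and the interleukin pair, the array with the higher Tfrc ratio had the lower signal on 1421839_at and 1450392_at. Within the vehicle pair this held for 1450392_at and was the other way round for 1421839_at. Across the treatments, hydrogen peroxide replicate 1 had a higher Tfrc ratio than interleukin replicate 1 and also the higher signal on both probe sets. Where along the Abca1 transcript its probe sets lie was not analysed here, and the part of RNA integrity in the fall was not tested. Its part in the changes of the other members against vehicle, Abca9 among them, was not tested either.

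**Figure D3:**
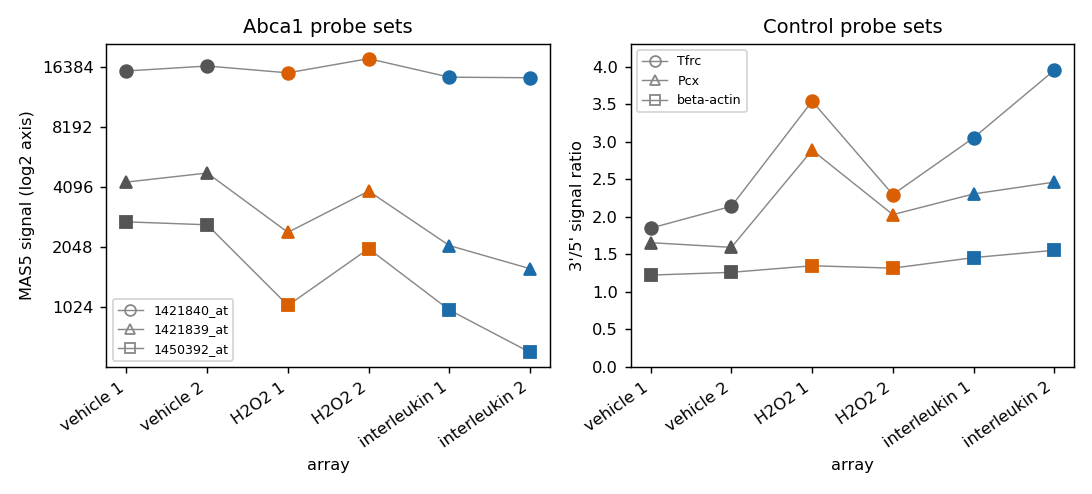
Left, MAS5 signal of the 3 Abca1 probe sets on each of the 6 arrays (log2 axis), with a line joining the values of each probe set; right, the 3' to 5' signal ratio of Tfrc, Pcx and beta-actin on the same arrays. The 2 dimmer Abca1 probe sets are lowest on interleukin array 2, where the Tfrc ratio is highest at 3.95, while the brightest probe set stays between 14464 and 18025.

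Abca7, which takes part in phagocytosis and lipid export and resembles Abca1, read 1755.9 and 2158.4 with vehicle, 1369.2 and 1597.4 with hydrogen peroxide, and 2236.4 and 2140.7 with interleukin. The hydrogen peroxide arrays lay below all others, while vehicle and interleukin overlapped. Abca7 was higher with interleukin than with hydrogen peroxide by 0.57 ± 0.15 (SE, limma, adjusted p = 0.0463). Against vehicle the changes were 0.17 (adjusted p = 0.504) with interleukin and -0.40 (95% interval -0.74 to -0.06, adjusted p = 0.159) with hydrogen peroxide. The call between treatments held in 4 of 14 alternatives and was lost without each of the 6 arrays in turn (adjusted p 0.0633 to 0.195), over a range of 0.0264 to 0.195.

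The other tested subfamily A genes passed in no comparison. Abca2, a lysosomal lipid transporter, read 490.3 and 502.1 with vehicle, 778.4 and 514.0 with hydrogen peroxide, and 683.5 and 763.2 with interleukin. Its treated arrays all lay above vehicle, but the log2 changes of 0.54 (limma, adjusted p = 0.153) and 0.35 (adjusted p = 0.425) did not pass. Abca3, the surfactant lipid transporter of lamellar bodies, changed by 0.29 (adjusted p = 0.27) and 0.19 (adjusted p = 0.551) on its brighter probe set. On its other probe set the changes were 0.50 (adjusted p = 0.0759) with interleukin and 0.52 (adjusted p = 0.107) with hydrogen peroxide. Abca5, a lysosomal member, changed by 0.14 (adjusted p = 0.626) and -0.05 (adjusted p = 0.899). Abca4, Abca6, Abca8a, Abca8b, Abca12, Abca13, Abca14 and Abca16 were too dim to test.

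By the symbol rule, subfamily B had 15 probe sets of 8 genes, 9 of them tested for 6 genes. Abcb1b, which together with Abcb1a encodes the rodent P-glycoproteins that export drugs and other hydrophobic compounds, read 268.5 and 283.7 with vehicle, 809.5 and 618.2 with hydrogen peroxide, and 479.4 and 353.2 with interleukin. The 3 groups did not overlap, with hydrogen peroxide highest and vehicle lowest. Means were 276.1 ± 10.7 (SD, n = 2), 713.9 ± 135 and 416.3 ± 89.2. Abcb1b rose 2.56-fold with hydrogen peroxide, a log2 change of 1.36 ± 0.27 (SE, 95% interval 0.77 to 1.95, limma adjusted p = 0.0169). The interleukin change of 0.58 did not pass (interval -0.01 to 1.16, adjusted p = 0.174), nor did the difference between the treatments of -0.78 ± 0.27 (adjusted p = 0.0998), so the treatments are not shown to differ. The hydrogen peroxide call held in 10 of 14 alternatives, over adjusted p from 0.0140 to 0.124. It was lost with no trend in the variance model (0.0744) and without vehicle replicate 1 (0.105), vehicle replicate 2 (0.0932) or hydrogen peroxide replicate 1 (0.124). The paralog Abcb1a was too dim to test, at 16.8 to 186.9 over its probe sets, as was the bile salt export pump Abcb11 at 30.3 to 214.4. Abcb1a and Abcb1b are close paralogs, and cross-hybridisation between them was not tested.

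None of the other B genes found by the symbol rule passed. Tap1 and Tap2, ABC genes outside that rule that rose with interleukin, are given with the lists below. Abcb9, a lysosomal peptide transporter, read 147.8 and 254.2 with vehicle, 435.4 and 143.7 with hydrogen peroxide, and 298.5 and 495.4 with interleukin on its brighter probe set. Its hydrogen peroxide arrays spanned the vehicle arrays, and the interleukin change of 0.99 had an interval of -0.16 to 2.14 (limma, adjusted p = 0.231). On the other tested Abcb9 probe set the interleukin change was -0.07 (adjusted p = 0.925). Abcb4, the phosphatidylcholine floppase of bile formation, read 254.3 and 315.7, 255.5 and 327.4, and 333.6 and 449.5, with an interleukin change of 0.45 (adjusted p = 0.363). Abcb8, a mitochondrial inner membrane transporter, read 1333.9 and 1345.3, 1542.6 and 1722.0, and 979.0 and 1349.6. Its difference between the treatments was -0.50 (adjusted p = 0.112), and -0.74 without interleukin replicate 2. On the other tested Abcb8 probe set that difference was 0.16 (adjusted p = 0.738). Abcb10, a mitochondrial member needed for heme synthesis, changed by 0.13 (adjusted p = 0.603) with interleukin and 0.34 (adjusted p = 0.22) with hydrogen peroxide. Abcb6, linked to porphyrin transport, changed by -0.05 (adjusted p = 0.881) with interleukin.

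Subfamily C, the multidrug resistance proteins, had 20 probe sets of 8 genes, 13 of them tested for 5 genes. Abcc3 (MRP3), which exports glucuronide conjugates and bile salts across the basolateral membrane, showed the most sizeable change of any tested ABC probe set. It read 140.2 and 210.9 with vehicle, 165.1 and 183.4 with hydrogen peroxide, and 4218.4 and 3803.2 with interleukin. The vehicle and hydrogen peroxide arrays overlapped, and both interleukin arrays lay far above all others. Means were 175.6 ± 49.99 (SD, n = 2), 174.2 ± 12.9 and 4011 ± 294. Abcc3 rose 23.3-fold with interleukin, a log2 change of 4.54 ± 0.26 (SE, 95% interval 3.98 to 5.11, limma adjusted p = 2.04e-06). Against hydrogen peroxide it was 4.52 ± 0.26 higher (adjusted p = 3.13e-06), and with hydrogen peroxide against vehicle the change was 0.02 (interval -0.55 to 0.58, adjusted p = 0.98). The interleukin call held in 14 of 14 alternatives, with log2 changes of 4.25 to 4.84 and adjusted p from 2.9e-07 to 0.00167. The geometric means with vehicle (172) and hydrogen peroxide (174) were under the lowest tested mean of 193.7, so the probe set passed the filter through its interleukin arrays, and the fold rests on dim signals in its denominator.

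Abcc1 (MRP1), an exporter of glutathione conjugates and leukotriene C4, read 5032.9 and 6214.9 with vehicle, 6804.1 and 8125.8 with hydrogen peroxide, and 9327.8 and 7039.6 with interleukin on 1452233_at. All treated arrays lay above both vehicle arrays, and the treatments overlapped. Means were 5624 ± 836 (SD, n = 2), 7465 ± 935 and 8184 ± 1618. Abcc1 rose 1.45-fold with interleukin, by 0.53 ± 0.16 on the log2 scale (SE, limma, adjusted p = 0.0411), while the hydrogen peroxide change of 0.41 (95% interval 0.07 to 0.76, adjusted p = 0.151) did not pass. The interleukin call held in 8 of 14 alternatives, over adjusted p from 0.0191 to 0.27. It was lost without vehicle replicate 1 (0.38, adjusted p = 0.27), vehicle replicate 2 (0.69, adjusted p = 0.0577) or interleukin replicate 1 (0.33, adjusted p = 0.221). On the dimmer probe set 1421378_s_at the changes were 0.17 (adjusted p = 0.454) and 0.32 (adjusted p = 0.208).

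Abcc4 (MRP4), which exports cyclic nucleotides and prostaglandins, read 1162.1 and 900.0 with vehicle, 1400.6 and 1834.6 with hydrogen peroxide, and 1668.4 and 1118.6 with interleukin. The hydrogen peroxide arrays lay above vehicle, with a change of 0.65 (95% interval 0.15 to 1.14) that did not pass (limma, adjusted p = 0.119), and the interleukin change was 0.42 (adjusted p = 0.241). Abcc5 (MRP5), also an exporter of cyclic nucleotides, had 8 tested probe sets, whose interleukin changes ran from -1.22 to 0.16. Its brightest changed by -0.07 (adjusted p = 0.768) with an interval of -0.35 to 0.22. The lowest value was that of 1418043_at, which read 305.5 and 412.1 with vehicle, 168.6 and 277.8 with hydrogen peroxide, and 177.9 and 129.9 with interleukin (-1.22 ± 0.39, adjusted p = 0.0595). Both interleukin arrays of 1418043_at lay below both vehicle arrays, and it passed in some alternatives, named in the closing part on processing. Its geometric mean with interleukin (152) was under the lowest tested mean of 193.7, and the probe set passed the filter through its vehicle arrays. The size of its change rests on a dim interleukin signal. Abcc10 changed by 0.16 (adjusted p = 0.84) with interleukin. Abcc2, the apical conjugate exporter, was too dim to test at 23.7 to 101.1, as were Abcc6 at 8.9 to 78.3 and Abcc12.

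**Figure D4:**
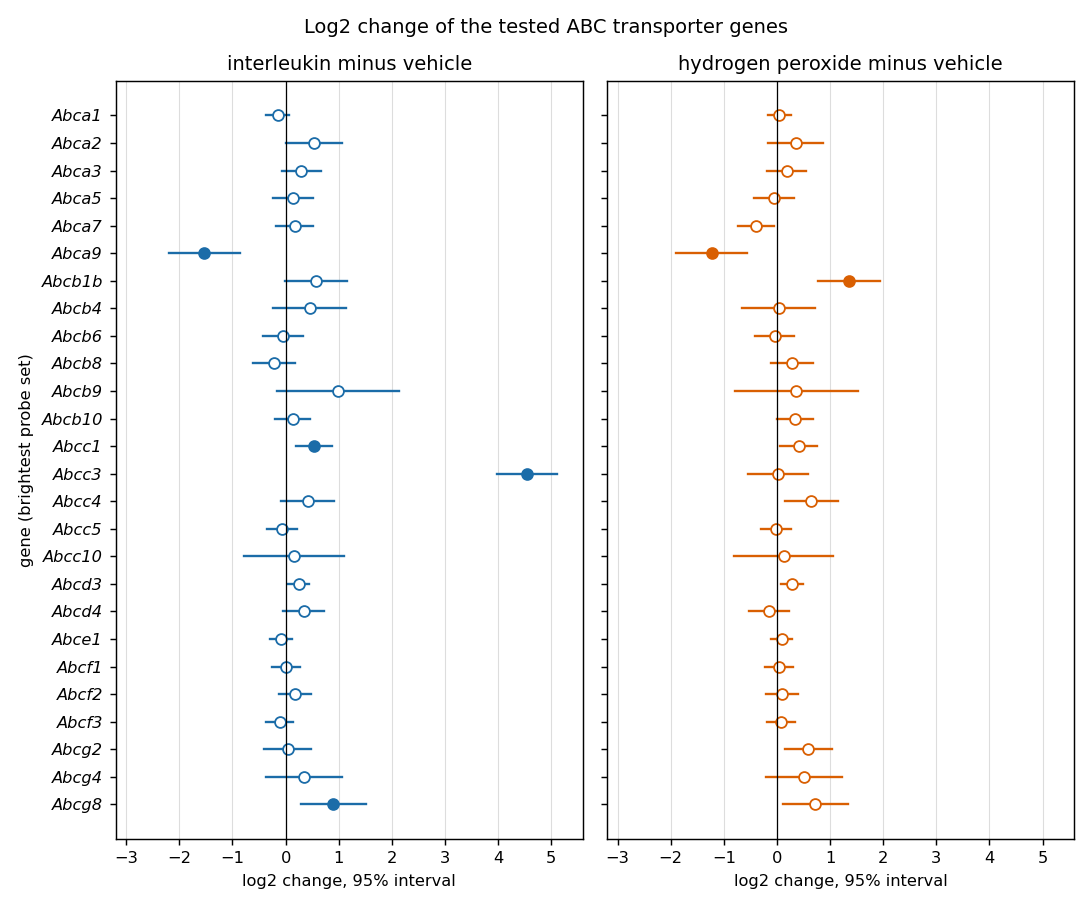
Log2 change against vehicle, with 95% intervals from limma, for the brightest probe set of each of the 26 tested ABC genes, with interleukin and hydrogen peroxide side by side and filled symbols for adjusted p under 0.05. Abcc3 stands alone at 4.54 with interleukin, Abcb1b is filled only for hydrogen peroxide, and Abca9 is filled on the negative side for both.

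Subfamily D had 8 probe sets of 3 genes, with 1 tested probe set for each of Abcd3 and Abcd4, and 0 passed in any comparison by limma, while 1 had an unadjusted p under 0.05 in each. Abcd3 (PMP70), which imports long-chain acyl-CoA into peroxisomes, read 6959.4 and 6872.0 with vehicle, 8490.7 and 8295.0 with hydrogen peroxide, and 8197.4 and 8200.1 with interleukin. All treated arrays lay above vehicle and the cultures of a group were close to each other. The changes of 0.25 (95% interval 0.04 to 0.45, adjusted p = 0.0981) and 0.28 (0.08 to 0.48, adjusted p = 0.103) nevertheless missed the threshold. Abcd4, a lysosomal member needed for cobalamin handling, changed by 0.34 (adjusted p = 0.215) with interleukin and -0.15 (adjusted p = 0.647) with hydrogen peroxide. The peroxisomal Abcd2 was too dim to test.

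ABCE1, which splits ribosomes after termination, and the F subfamily, which acts in translation, had 14 probe sets in all, 13 of them tested. Abce1 read 11270 and 10366 with vehicle, 11450 and 11565 with hydrogen peroxide, and 9889.8 and 10523 with interleukin on its brightest probe set. The interleukin and vehicle arrays overlapped, and the change was -0.08 (95% interval -0.29 to 0.12, limma adjusted p = 0.586). The other Abce1 probe sets had interleukin changes of -0.27 (adjusted p = 0.0967) and -0.73 (adjusted p = 0.158), and none of the 3 passed in any comparison. The F genes gave 0 calls and 0 probe sets at an unadjusted limma p under 0.05 in all 3 comparisons. Abcf1 changed by 0.01 with interleukin (interval -0.25 to 0.28, adjusted p = 0.95), Abcf2 by 0.17 (adjusted p = 0.432) and Abcf3 by -0.11 (interval -0.37 to 0.15, adjusted p = 0.565). Over the 10 tested F probe sets the interleukin changes ran from -0.51 to 0.19 and the hydrogen peroxide changes from -0.37 to 0.28.

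Subfamily G had 9 probe sets of 6 genes, 3 of them tested. Abcg8, the partner of Abcg5 in the sterol exporter of liver and gut, read 220.8 and 236.0 with vehicle, 362.5 and 389.9 with hydrogen peroxide, and 387.7 and 468.0 with interleukin. All treated arrays lay above vehicle, and the treatments overlapped. Abcg8 rose 1.87-fold with interleukin, by 0.90 ± 0.28 on the log2 scale (SE, limma, adjusted p = 0.0499), and the hydrogen peroxide change of 0.72 (95% interval 0.11 to 1.33, adjusted p = 0.155) did not pass. The call held in 1 of 13 alternatives, over adjusted p from 0.0254 to 0.202, and was lost without each of the 6 arrays in turn (0.0577 to 0.202). Its obligate partner Abcg5 was too dim to test, at 4.5 to 89.4, and so was the macrophage sterol exporter Abcg1, at 15.7 to 153.7. Abcg2, the breast cancer resistance protein that exports drugs, urate and porphyrins, read 567.6 and 546.1 with vehicle, 807.6 and 866.4 with hydrogen peroxide, and 626.0 and 522.4 with interleukin. The hydrogen peroxide arrays lay above all others, but the change of 0.59 (interval 0.15 to 1.03) did not pass (adjusted p = 0.113), and neither did the difference between the treatments of -0.55 (adjusted p = 0.122). Abcg4, a sterol exporter of the nervous system, changed by 0.34 (adjusted p = 0.519) and 0.50 (adjusted p = 0.398).

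The 38 probe sets below the filter had signals of 1.5 to 260.2 over all arrays, and 17 genes had no tested probe set. With no filter on signal, 4 of 87 member probe sets passed for interleukin (4.6%, background 5.98%), 1 for hydrogen peroxide (1.15%, background 1.69%) and 1 between the treatments (1.15%, background 3.24%). None of those calls fell on a probe set below the filter.

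Genes that work with the transporters were read through 10 lists, counted by gene beside a background of 9.78% higher and 6.61% lower for interleukin, and 4.08% and 2.91% for hydrogen peroxide. Median log2 changes over all tested genes were 0.03 and 0.06. These lists were chosen with earlier results of these data known. Among ABC genes outside the symbol rule, both tested members rose with interleukin, and they are the subunits of the peptide transporter of antigen presentation. Tap1 went from a mean of 1818 to 4077 (1.16, limma adjusted p = 0.000326) and Tap2 from 2799 to 4159 (0.57, adjusted p = 0.00678). With hydrogen peroxide neither passed (0.25, adjusted p = 0.305, and 0.38, adjusted p = 0.0777), and 1 had an unadjusted p under 0.05. The interleukin count was 1 without vehicle replicate 1 or 2.

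Of 13 tested transcriptional regulators of ABC genes 3 rose and 0 fell with interleukin, at a median of 0.37. At an unadjusted limma p under 0.05, 5 were higher and 2 lower. The 3 that rose were Hif1a (0.51, limma adjusted p = 0.000815), Ahr, the xenobiotic sensor (0.67, adjusted p = 0.00281), and Keap1, the repressor of NRF2 (0.44, adjusted p = 0.0354). With hydrogen peroxide Srebf2, the master regulator of cholesterol synthesis, fell by 0.62 (adjusted p = 0.00974) and Esrra rose by 0.78 (adjusted p = 0.0419), and 0 of the 13 passed without vehicle replicate 1 or hydrogen peroxide replicate 2, and 1 without vehicle replicate 2 or hydrogen peroxide replicate 1. Of 14 tested genes of sterol efflux and trafficking 7 rose and 0 fell with interleukin, at a median of 0.38. Lpl, lipoprotein lipase, went from 4184 to 10897 (1.38, adjusted p = 1.97e-05), and the lysosomal cholesterol genes Npc2 (0.70, adjusted p = 0.00036) and Lipa (0.86, adjusted p = 0.00122) rose too. With hydrogen peroxide 2 rose and 1 fell, namely Pltp, the phospholipid transfer protein, from 8325 to 20201 (1.28, adjusted p = 0.00138), Apobr (0.77, adjusted p = 0.0376), and Stard4, which fell by 0.48 (adjusted p = 0.0314). Pltp (0.68, adjusted p = 0.0101) and Apobr (1.06, adjusted p = 0.00342) were also among the 7 that rose with interleukin. The hydrogen peroxide count was 1 without vehicle replicate 2, hydrogen peroxide replicate 1 or hydrogen peroxide replicate 2.

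Of 21 tested genes of glutathione synthesis and conjugation, which make substrates of the C subfamily, 6 rose and 1 fell with interleukin. With hydrogen peroxide 2 rose and 0 fell, and the medians for the 2 agents were 0.28 and 0.33. At an unadjusted limma p under 0.05, 9 were higher and 2 lower with interleukin, and 9 higher and 3 lower with hydrogen peroxide. Gstt1 went from 1908 to 6573 with interleukin (1.78, limma adjusted p = 2.08e-05) and Mgst1 rose by 0.74 (adjusted p = 0.00202). Gclc, the catalytic subunit of the enzyme that begins glutathione synthesis, was the one that fell, by 0.54 (adjusted p = 0.0156). Gsto1 rose with both agents, by 0.64 (adjusted p = 0.00114) and 1.10 (adjusted p = 0.000316). Ltc4s, leukotriene C4 synthase, also rose with both, by 1.97 (adjusted p = 0.00737) with interleukin and 2.18 (adjusted p = 0.012) with hydrogen peroxide, from vehicle signals of 86.5 and 201.6 whose geometric mean was below that of any tested probe set. It thus passed the filter through its treated arrays, and the sizes of its changes rest on a dim vehicle signal. The hydrogen peroxide count was 1 without vehicle replicate 1 or hydrogen peroxide replicate 2, and 4 without either interleukin array.

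The 5 tested genes of glucuronidation and sulfation were Ugdh, Ugp2, Slc35d1, Papss1 and Papss2. No glucuronosyltransferase or sulfotransferase was among them. Of the 5, 2 rose with interleukin, Ugdh (0.29, limma adjusted p = 0.0288) and Papss2 (0.70, adjusted p = 0.0388). Without vehicle replicate 1, vehicle replicate 2 or interleukin replicate 1 that count was 0, and without interleukin replicate 2 it was 1. With hydrogen peroxide 0 passed and 0 had an unadjusted p under 0.05. Of 10 tested phase I genes 2 rose with interleukin, Ephx1 (0.74, adjusted p = 0.00222) and Fmo1 (1.24, adjusted p = 0.0369), and the count was 1 without vehicle replicate 2 or either interleukin array. Ephx1, an epoxide hydrolase, also rose with hydrogen peroxide, from 1574 to 6789 (2.11, adjusted p = 2.02e-05). Of 3 tested uptake transporters 0 passed against vehicle with either agent by limma, with 0 at an unadjusted p under 0.05 for interleukin and 1 lower for hydrogen peroxide, and 1 passed for hydrogen peroxide without either interleukin array.

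For the D subfamily, 18 peroxisomal genes were tested, of which 2 rose and 1 fell with interleukin. They were Acsl4 (0.43, limma adjusted p = 0.0206), Pex11a (0.73, adjusted p = 0.0393) and Acaa1b, a peroxisomal thiolase, which fell by 1.17 (adjusted p = 0.0152). Pex11a also rose with hydrogen peroxide (0.997, adjusted p = 0.0223). The interleukin count was 1 without vehicle replicate 1 and 0 without vehicle replicate 2 or interleukin replicate 1, and the hydrogen peroxide count was 0 without any 1 of the vehicle or hydrogen peroxide arrays. Of 18 tested genes of mitochondrial heme and iron-sulfur handling 2 rose with interleukin, Slc25a37, the iron importer mitoferrin-1 (0.52, adjusted p = 0.0343), and Alas1 (0.36, adjusted p = 0.0481). With hydrogen peroxide 2 rose and 1 fell, with Slc25a37 (0.70, adjusted p = 0.0216) and Hmox1, heme oxygenase (0.68, adjusted p = 0.0112), higher and Slc25a39 lower (-0.34, adjusted p = 0.0484). The interleukin count was 0 without either vehicle array and 1 without any other, and the hydrogen peroxide count was 1 without hydrogen peroxide replicate 1 and 0 without hydrogen peroxide replicate 2 or either vehicle array.

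Of 18 tested translation factors that work beside Abce1 and the F genes 1 rose and 2 fell with interleukin. Gspt1, the release factor eRF3 that acts before ABCE1, fell by 0.36 (limma, adjusted p = 0.0173), Eif3a fell by 0.37 (adjusted p = 0.0299) and Eif2b2 rose by 0.36 (adjusted p = 0.0476). With hydrogen peroxide only Eif2b3 rose (0.66, adjusted p = 0.0207). The interleukin count was 0 without either vehicle array and 1 without either interleukin array, and the hydrogen peroxide count was 0 without any 1 of the vehicle or hydrogen peroxide arrays.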

How the data were processed

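Total RNA from As4.1 cells was hybridised to 6 Affymetrix arrays. The authors deposited MAS5 signals, intensities on a linear scale, with MAS5 named in the submitters' processing notes and its version not given in the sources used here. The trimmed mean (2% at each end) was 1500.01 on every array. Detection calls and scanner files were not used here.

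Signals were log2 transformed with nothing added. Controls (64 probe sets) were left out, and the 22519 probe sets with a mean log2 signal at or above the median were tested, from a geometric mean of 193.7 upward. All 6 arrays entered 1 limma fit (limma 3.58.1, R 4.3.3, eBayes with trend), and p-values were adjusted across them by Benjamini-Hochberg with 0.05 as the threshold. The fit was tested on data simulated from its own variance trend, which cannot show whether that trend holds in these arrays. Gene names came from the array annotation, updated through RefSeq gene identifiers (34741 of 34945 probe sets with 1 symbol matched; 932 had several and 9160 none). All 87 member probe sets matched, and 13 carry a suffix for possible cross-hybridisation. For counts by gene, the brightest probe set by mean log2 signal stood for each of 10892 genes. Named were members that passed, up to 3 further genes of smallest p per subfamily, and list genes of smallest p. Abcb6, Abcb10, Gclc and other list genes named beside small counts fall outside that rule and were chosen after their values were seen. The members and lists were chosen with earlier results of these data known. Array number limits the precision.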

Additional observations from a re-analysis of the deposited data

How the results depend on the processing

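Each result was recomputed with another scaling, pseudocount, filter, variance model, set of arrays or threshold, and without each array. For interleukin against vehicle the count of 6 ABC probe sets stayed between 4 and 6, and leaving out 1 array gave 3 to 6. For hydrogen peroxide the count of 2 became 1 with quantile normalization, no filter, the stricter filter (60th percentile) or the replicate block, and 0 with no trend in the variance model; leaving out 1 array gave 0 to 3. Between the treatments the count of 2 became 1 with no filter, no trend, 4 arrays only, the replicate block or a 2-fold minimum, and leaving out 1 array gave 1 to 3. Counts over all tested probe sets moved with no trend (3627 to 1783, 1282 to 57 and 1987 to 716) and at least 2-fold (1040, 291 and 579). With no filter the counts were 2695, 762 and 1458, out of 45037 probe sets. A fit on 1 probe set per gene gave 2128, 1270 and 1534, out of 10892. The last 2 settings test other numbers of probe sets than the 22519 of the main fit, so their counts do not compare directly. Leaving out 1 array gave as few as 1554, 235 and 839. Abcc5 (1418043_at) passed for interleukin with quantile normalization, 75th percentile centring, 4 arrays only and without either hydrogen peroxide array. Of the members' log2 changes under alternatives 1023 kept direction and side of the threshold, 41 lost a call, 11 gained one, 41 uncalled values changed sign and 0 called ones did. Of 480 list counts 152 moved by over 1.5 times. The labels do not say whether same-numbered cultures were paired, and correlations from 2 arrays a group cannot decide it. Deviations of same-numbered arrays correlated at 0.107 (vehicle, hydrogen peroxide), 0.0535 (vehicle, interleukin) and -0.129 (hydrogen peroxide, interleukin). The replicate block took the interleukin count of ABC probe sets from 6 to 4. With 2 arrays a group and a median SE of 0.21, changes well under 2-fold were often not detectable.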
